A study of Arabidopsis thaliana with 6 samples.

Results

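The plasma membrane aquaporin genes (PIP genes) of Arabidopsis thaliana were examined for peaks of the zinc finger protein JAGGED (JAG) in floral buds. The genes were PIP1A, PIP1B, PIP1C, PIP1;4 and PIP1;5 of the PIP1 subgroup and PIP2A, PIP2B, RD28, PIP2E and PIP3 of the PIP2 subgroup. They are 10 of the 13 PIP genes, of 35 aquaporin genes and of 27444 nuclear protein-coding genes. A peak was counted for a gene when its maximum (the summit) lay in the gene or within 3000 bp of it, and 32 of 6890 peaks met this rule. The 10 genes were chosen by the peaks listed near genes of this family in these same lists, so the numbers of peaks at them are a description and carry no test.

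Chromatin immunoprecipitation followed by sequencing (ChIP-seq) was carried out with antibodies against green fluorescent protein (GFP) on 3 JAG-GFP samples and 3 wild-type samples. The JAG-GFP plants carried the jag-2 mutation and a genomic fusion of JAG to GFP under its own promoter, and the wild-type plants were Landsberg erecta, which have no tag and give the background of the antibody. All samples were inflorescence tips with unopened buds, so cells of every bud tissue were pooled. The replicates are numbered, with nothing said of separate cultures or plants, so differences between lists may be technical.

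Aquaporins are membrane channels that let water, and in some cases other small molecules, cross membranes along a gradient. PIP proteins sit in the plasma membrane and act as tetramers, and in maize PIP1 proteins reach the plasma membrane when they are made together with PIP2 proteins. Growing plant cells enlarge by taking up water, and JAG is known for promoting the growth of floral organs.

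Peaks were listed once per replicate number, with 2620, 2143 and 2127 peaks in the lists of replicates 1, 2 and 3. Each peak has a score given by the authors, of which the scale is not stated. It was used here to place a peak within its own list, as the percentile of peaks with a lower score, with peaks of equal score counted in part. The highest score of the lists of replicates 1 and 2 lay over the JAG gene itself, of which the transgene carries another copy. The list of replicate 3 ends on chromosome 1 before that gene, at position 23827070, and none of the 10 PIP genes lies past that point. Coordinates are those of the lists (TAIR10). Gene limits came from a gene table without strand, so the sides of a gene are called low and high by coordinate and not upstream and downstream.

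Of the 10 genes, 6 had a summit of the list of replicate 1, 8 of replicate 2 and 8 of replicate 3, where 17.0%, 13.8% and 14.6% of 25680 protein-coding genes had one. PIP1A, PIP1B, PIP1C, PIP1;4, PIP2E and PIP3 had a summit of every list, 6 of 10 genes, and 6.73% of all genes did. With the highest-scoring 50% of each list, 3 of 10 had one, namely PIP1B, PIP2E and PIP3, and 3.62% of all genes did. At PIP3 no single site remained in every list. In replicate 3 the low-end peak remained (percentile 50.5) and in replicate 1 it did not (49.7), where peaks on the high side did. With a window of 1000 bp, 6, 5 and 5 of the 10 had a summit of replicates 1, 2 and 3, where 9.67%, 7.92% and 8.22% of all genes had one. PIP2B and RD28 had summits of the lists of replicates 2 and 3 only, and in each list both were counted from the same peak. PIP1;5 and PIP2A had none. By subgroup, 4 of 5 PIP1 genes and 2 of 5 PIP2 genes of the set had a summit of every list. These shares rest on genes picked with the peaks of these lists known and are not read as an excess.

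**Figure D1:**
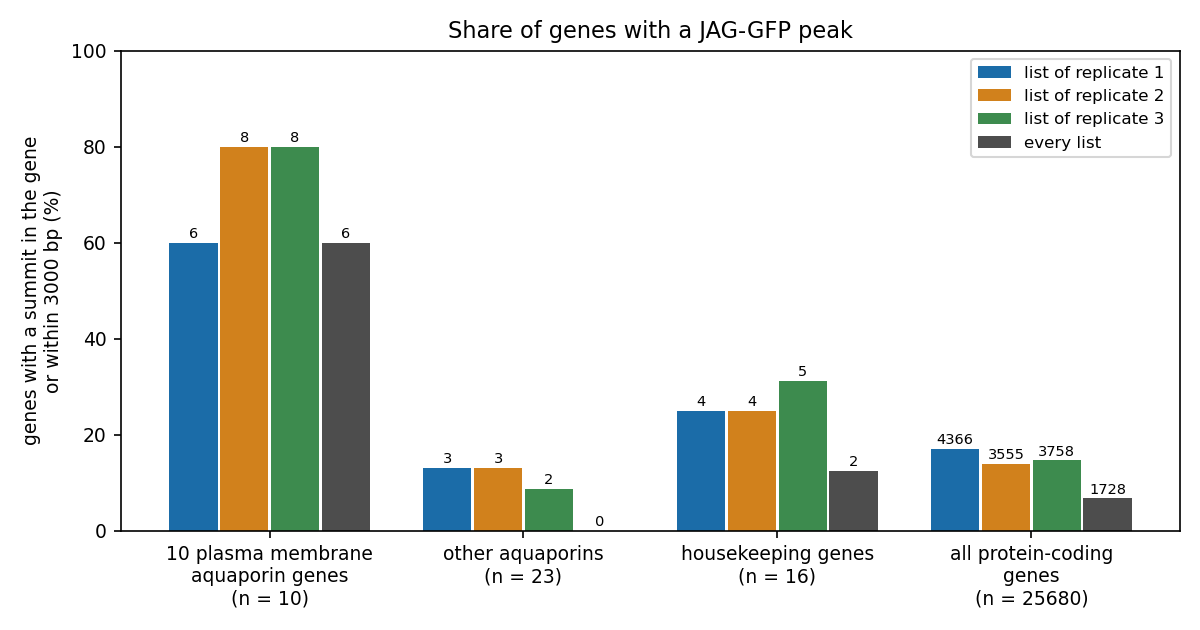
Share of genes, in percent, with a summit inside them or up to 3000 bp away, for the 10 plasma membrane aquaporin genes, the 23 other aquaporin genes and 16 housekeeping genes that all lists can cover, and all 25680 protein-coding genes. Bars stand for the lists of replicates 1, 2 and 3 and for genes with a summit of every list, with the number of genes above each bar; the 10 genes had 6, 8, 8 and 6. In the lists of replicates 2 and 3, PIP2B and RD28 are counted from the same peak.

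Peaks that overlapped by at least 1 bp were merged, and a region with a peak of every list was called shared. There were 869 shared regions, of which 7 lay at 6 of the 10 genes, and 6.24% of all genes had such a region. PIP1B had 2 of the 7 and was the 1 gene of the 10 with at least 2 shared regions, which 0.409% of all genes had. This depends on the merging. With peaks of different lists joined only at an overlap of 50% of each, 7 regions again lay at the 6 genes, and 4.8% of all genes had one. The low-side peak of replicate 3 at PIP1B (2378 bp) was then too wide to be joined, and PIP3 had a shared region at each end. By mean score, the 7 regions merged at 1 bp ranked 80th, 301st, 517th, 562nd, 579th, 677th and 832nd. The low-side region of PIP1B and that of PIP3 lay at percentiles 90.8 and 65.4 of the shared regions. The others lay in the lower part, at percentiles 4.2 to 40.4. With the highest-scoring 50% of each list, 2 shared regions remained, at PIP1B and PIP2E, and 3.56% of all genes had one.

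**Figure D2:**
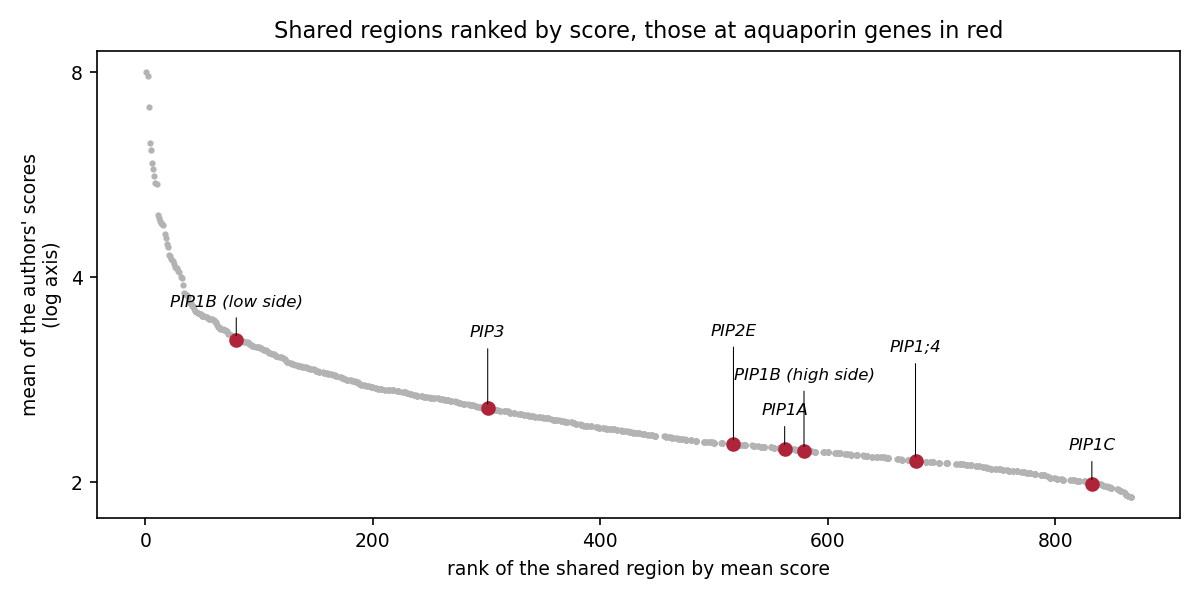
All 869 shared regions by rank (x axis) and by the mean of the authors' scores over the 3 lists (y axis, log scale), with the 7 regions at plasma membrane aquaporin genes as red points. The low-side region of PIP1B ranks 80th, that of PIP3 ranks 301st, and the others rank from 517th (PIP2E) to 832nd (PIP1C).

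PIP1B (AT2G45960, also PIP1;2), a water channel that is abundant in leaves, had the highest region of the set by mean score, with merging at 1 bp. On its low side lay a shared region on chromosome 2 from 18907379 to 18910291, with scores of 2.84, 3.30 and 3.58 in the lists of replicates 1, 2 and 3. All 3 peaks lay high in their lists, at percentiles 94.0, 96.2 and 95.2, although in replicate 1 a peak of PIP3 scored higher (2.95). Their summits, at 18909206, 18909299 and 18909288, fell within 93 bp of each other and 782 to 875 bp outside the gene. By mean score, 3.24, it lay below a region nearest to AT2G44800, with a mean of 3.27. The next regions below were nearest to AT3G21320 and EMB269, with means of 3.233 and 3.227. Neighbours in rank have similar scores by construction.

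The other PIP1B region lay on the high side, from 18910692 to 18913858, and was lower in each list. Its scores were 2.38, 2.25 and 2.05 in the lists of replicates 1, 2 and 3, at percentiles 83.4, 68.5 and 40.2. The summits lay within 56 bp of each other and 59 to 115 bp past the gene. CYP86A8, which encodes a fatty acid hydroxylase of cutin formation, was nearer to all 3 summits, and the summit of replicate 1 lay inside it.

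PIP1C (AT1G01620) also had peaks on both sides, with lower scores. The shared region on its high side (chromosome 1, 226801 to 229204) had scores of 2.13, 1.96 and 1.89 for replicates 1, 2 and 3, at percentiles 62.1, 29.1 and 3.9. The summits lay 134 to 506 bp outside the gene and spanned 372 bp, and the region ranked 832nd of 869. On the low side only the lists of replicates 1 and 3 held a peak, from 224187 to 226366, with scores of 2.15 and 1.95. GPAT4, an acyltransferase gene of cutin formation, was nearer to both of those summits, at 498 and 640 bp against 816 and 674 bp for PIP1C. With merging at 1 bp, PIP1B and PIP1C were the 2 of 10 genes with at least 2 separate regions of at least 2 lists. Of all genes, 1.21% had them. Every list also had a summit at both ends of PIP3, which this merging joined into a single region.

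PIP1A (AT3G61430, also PIP1;1) had a single shared region at its low end, on chromosome 3 from 22732355 to 22734318. Its scores were 2.58, 2.23 and 1.92 in the lists of replicates 1, 2 and 3. The summits agreed closely, 9, 114 and 149 bp outside the gene in the same order of lists. The place of the peak within its list did not agree, at percentiles 89.4, 66.6 and 15.7.

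PIP1;4 (AT4G00430), which in Arabidopsis is known to carry hydrogen peroxide in immune responses, had a shared region farther away. It lay on the high side (chromosome 4, 188229 to 189439), with summits 1138 to 1406 bp past the gene, in a gap of 5847 bp to the next protein-coding gene. Scores were 1.98, 2.31 and 2.17 in the lists of replicates 1, 2 and 3, at percentiles 38.7, 72.6 and 55.5. Another peak, in the gene, was listed for replicate 1 alone, with a score of 1.88 at percentile 8.5.

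**Figure D3:**
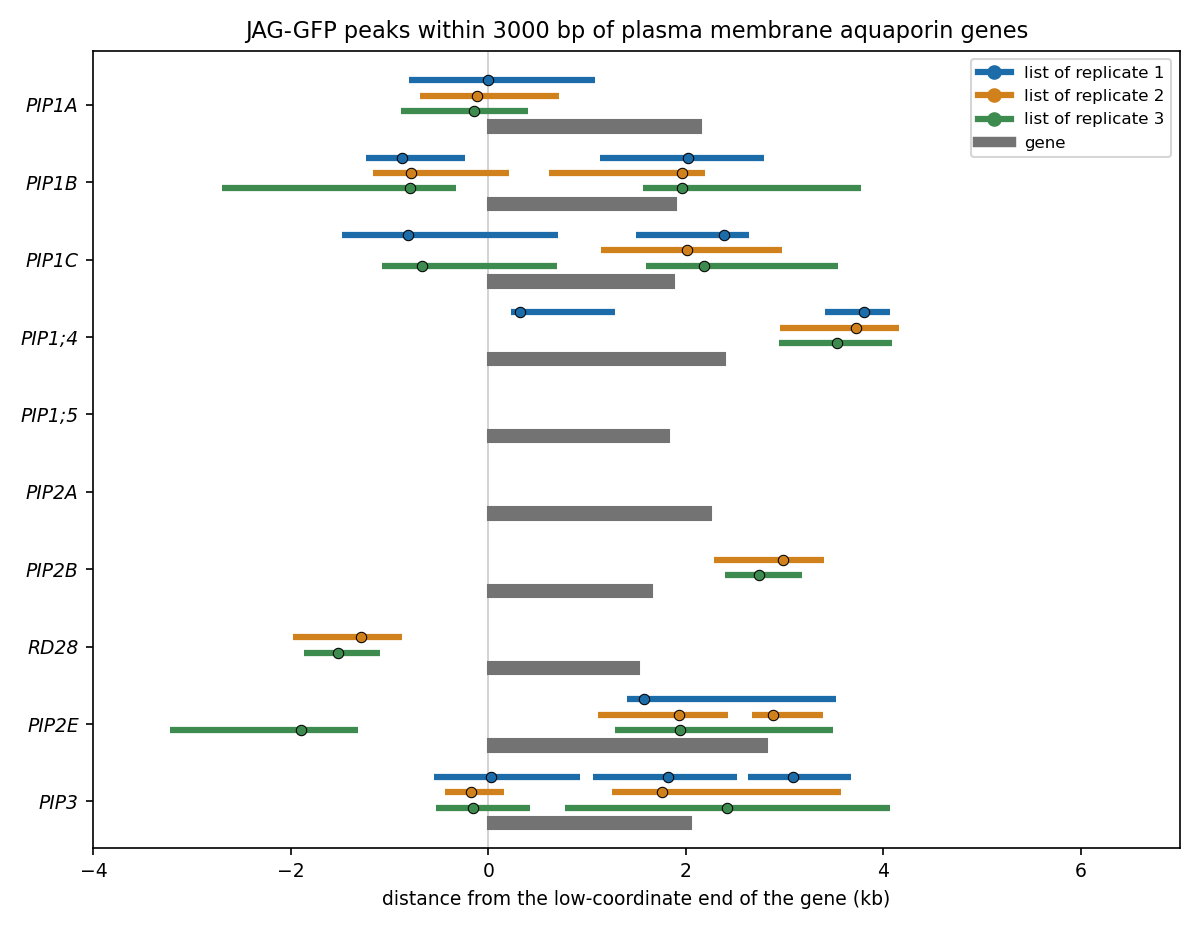
Peaks of the lists of replicates 1, 2 and 3 (colored lines, from start to end) with their summits (circles) at each plasma membrane aquaporin gene (grey bar), by distance in kb from the low-coordinate end of the gene. Peaks lie on both sides of PIP1B and PIP1C, at both ends of PIP3 and inside PIP2E, and none is drawn at PIP1;5 and PIP2A; the peaks drawn at PIP2B and RD28 are the same 2 peaks.

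Among the PIP2 genes, PIP3 (AT4G35100, also PIP2;7) had the most peaks, 7 in all. PIP1B with 6 and PIP3 were the 2 of 10 genes with at least 6 summits, which 0.662% of all genes had. At the low end of PIP3 the lists of replicates 1, 2 and 3 each had a summit, within 206 bp of each other on chromosome 4, with scores of 2.04, 2.09 and 2.13. At the high end they had summits at 16710176, 16710117 and 16710772, with scores of 2.95, 2.63 and 2.08. The high-end peak was among the strongest of the set in the list of replicate 1, at percentile 95.9, and in that of replicate 2, at 86.3, but not in that of replicate 3, at 44.4. Its summit lay in the gene in the lists of replicates 1 and 2 and 365 bp past it in that of replicate 3. A wide peak of replicate 3 (16709135 to 16712430) overlapped peaks at both ends, so merging made a single region of 4619 bp. A further peak on the high side, listed for replicate 1 with a score of 2.17, lay nearer to AT4G35110 than to PIP3.

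PIP2E (AT2G39010, also PIP2;6) was the member of the set with a site in the gene in every list. The region (chromosome 2, 16292388 to 16294796) had scores of 2.17, 2.22 and 2.44 for replicates 1, 2 and 3. These lay at similar places in their lists, at percentiles 67.5, 65.3 and 73.1. The summits lay 1576, 1934 and 1943 bp from the low end of the gene in the same order, inside a gene of 2822 bp. A lower-scoring peak lay beside it in replicate 2 (1.89), and replicate 3 had a peak on the low side (2.05), nearer to AT2G39000.

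PIP2B (AT2G37170) and RD28 (AT2G37180, also PIP2;3) are neighbouring and closely related copies, and RD28 was named for its response to desiccation. Both owe their count to the same peaks between them, so they are not separate observations. The list of replicate 2 had a score of 2.34 with its summit at 15616347, and that of replicate 3 a score of 2.40 with its summit at 15616111. These peaks lay at percentiles 74.9 and 71.5, and the list of replicate 1 had none within 3000 bp of either gene. The summit of replicate 2 was nearer to RD28 (1288 bp against 1325 bp for PIP2B), and that of replicate 3 was nearer to PIP2B (1089 bp against 1524 bp for RD28). The treatment of reads that match both copies is not stated, so the share of each copy in these peaks is uncertain.

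PIP1;5 and PIP2A, which in Arabidopsis has been tied to stomatal closure and lateral root emergence, had no listed peak nearby. The nearest summits of any list lay 76731 bp from PIP1;5 and 21218 bp from PIP2A. A list gives only peaks above its lowest score, which was 1.86, 1.89 and 1.87 for replicates 1, 2 and 3, so weaker binding at these genes cannot be seen. The farthest summit within 3000 bp lay 1898 bp from PIP2E (replicate 3, score 2.05), and the nearest past that limit lay 3468 bp from PIP3 (replicate 1, score 1.88).

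**Figure D4:**
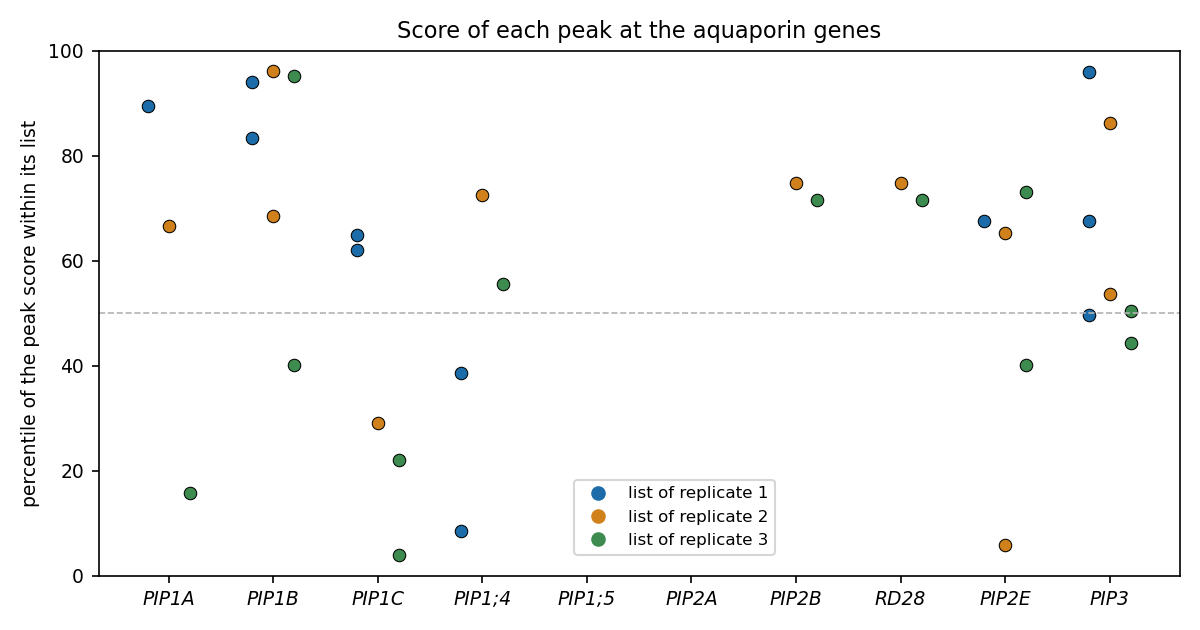
Percentile of the score of each peak within its own list (y axis, 0 to 100) at each plasma membrane aquaporin gene (x axis), in separate columns for the lists of replicates 1, 2 and 3; the dashed line marks the median peak. The low-side peaks of PIP1B lie at 94.0 to 96.2 in all lists, whereas those of PIP1A run from 15.7 to 89.4.

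Width was not used to choose the peaks. Many of the 32 peaks are the same site in several lists, so they are not separate observations. Of the 32, 26 were wider than the median peak of their list, with medians of 1461, 1348.5 and 1901 bp in the lists of replicates 1, 2 and 3, where all peaks had medians of 1032.5, 982 and 976 bp. By score, 8 of 11, 8 of 10 and 5 of 11 peaks lay above the median of the lists of replicates 1, 2 and 3. The median score of these peaks was 2.17, 2.24 and 2.08 in the same order, where all peaks had medians of 2.04, 2.08 and 2.12, so that in replicate 3 it was the lower. Relative to the nearest protein-coding gene, 8 of the 32 summits were in a gene, 18 were outside and within 1000 bp, and 6 were 1000 to 3000 bp away. That is 25.0%, 56.2% and 18.8%, against 34.5%, 48.2% and 17.3% of the 6219 peaks within 3000 bp of any gene on the part of the genome that all lists cover. The rule itself limits the distance to 3000 bp. A gene outside the set was nearer to 7 of the 32 summits, at PIP1B, PIP1C, PIP2E and PIP3. The lists also ordered the regions unlike each other: in 4 of the 7 shared regions (PIP1A, PIP1C, PIP3 and the high side of PIP1B) the percentile among shared regions was highest for replicate 1 and lowest for replicate 3, as in 17.4% of all shared regions. For PIP3 the peaks compared lay at different ends of the gene.

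Of the 23 other aquaporin genes that all lists can cover, 3, 3 and 2 had a summit of the lists of replicates 1, 2 and 3. The shares of all genes were 17.0%, 13.8% and 14.6%. PIP2;5 (AT3G54820), of the remaining PIP genes, had a summit in the gene in the lists of replicates 1 and 2, each with a score of 2.42, and none in that of replicate 3. Another peak of replicate 1 lay 2818 bp from it, with BME3 nearer. PIP2;4 and PIP2;8 had none. Among the tonoplast aquaporins (TIP), which serve the vacuole membrane, DELTA-TIP had summits of replicates 2 and 3 at 691 and 744 bp, with scores of 2.24 and 2.10. TIP2 had a summit of replicate 1 in the gene, with a score of 1.98, and no other list. Of the NIP genes, whose proteins carry boron and other small solutes, NIP7;1 had summits of replicates 1 and 3 with scores of 1.88 and 2.05, and AT3G06085 was nearer to each. Of the SIP genes, SIP2;1 had a summit of replicate 2 alone (score 1.94).

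In all, 5 of the 23 other aquaporin genes that all lists can cover had a summit in any list, against 25.9% of all genes, and 0 had one of every list. The members were chosen with the peaks of these lists known, and the other aquaporin genes were what remained. The contrast between them may follow from that choice and was not tested. The median length free of other genes around a gene was 2853.5 bp for the 10 genes, 3254 bp for the other aquaporin genes and 1865 bp for all genes.

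Strongly transcribed genes can collect DNA in many precipitations, and PIP genes are widely transcribed. Of 16 housekeeping genes for actin, tubulin, ubiquitin, elongation factor and others, 4, 4 and 5 had a summit of the lists of replicates 1, 2 and 3. Of all genes, 17.0%, 13.8% and 14.6% had one. A summit of any list was at 7 of the 16, and at 25.9% of all genes. AT5G60390, a translation elongation factor gene, and AT2G28390 were the 2 with a summit of every list, which 6.73% of all genes had. All summits counted for AT5G60390 lay inside the gene AT5G60400. Those counted for AT2G28390 lay 2039 to 2125 bp from it, and AT2G28400 was nearer to that of replicate 1. Transcription was not measured here, so the 16 genes are not shown to be strongly transcribed in these buds. The part of transcription in the peaks at the PIP genes was not tested.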

How the data were processed

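Per the labels' protocols, each sample was 1300 to 1500 mg of inflorescence apices, cross-linked in formaldehyde, sheared to a mean of 500 bp and bound to beads with anti-GFP antibody. The submitters' processing notes name CASAVA 1.8 and the build TAIR10. Per the file headers, each of the 3 deposited lists gives the start, end, width and summit of a peak and a score by the authors. Not given in the sources used here are the peak caller, its threshold, the scale of the score and which wild-type sample each list used. Depth per library was not analysed here, and the number of peaks limits the precision.

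Gene names, limits and neighbours were read from RefSeq annotation (TAIR10.1), whose coordinates are not printed. All 51 loci of the lists matched. Peaks were merged at an overlap of 1 bp. A shared region has the median summit of the highest peak of each list and is ranked by the mean of the 3 scores, which assumes a common scale. Genes past position 23827070 of chromosome 1 were left out of the background, leaving 25680 of 27444. No test was made, because the members and gene lists were chosen with earlier results of these data known. Named were the 10 genes, other aquaporin genes with a summit in any list, genes nearer to a summit than a member, and the regions next in rank to the best one, of which 1 is not reported here. The 2 housekeeping genes with a summit of every list, and the genes nearer to their summits, were named after their values were seen. The counts of width, of the order of lists and of at least 6 summits were also added after their values were seen. No sequence was used, so the planned promoter words, protein identities and distances from the transcription start were not analysed here. Windows of 500, 1000 and 5000 bp, other overlaps, the highest-scoring 50% of each list, the nearest gene only and each list left out in turn were tried. Merging and windows were checked on simulated peaks. Python 3.11.15, numpy 2.4.6, pandas 2.3.3 and matplotlib 3.10.9 were used.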

Additional observations from a re-analysis of the deposited data

How the results depend on the processing

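Of 42 alternative values, 35 stayed close to those reported: counts within 1.5 times, and positions of a region within the spread of its position over the lists. A count that stayed the same can cover other regions. An overlap of 50% of each peak again gave 7 shared regions, but the low-side region of PIP1B was lost and PIP3 had a region at each end. With the highest-scoring 50% of each list, 3 of the 10 genes had a summit of every list in place of 6. They were PIP1B, PIP2E and PIP3, and 3.62% of all genes had one. Shared regions fell to 2 in place of 7, at PIP1B and PIP2E, and 3.56% of all genes had one. Windows of 1000 bp and of 500 bp each left 5 genes with a summit in the list of replicate 2, and 5 in that of replicate 3, in place of 8. For 500 bp the share of all genes per list was not counted. A summit of every list was at 5 genes with 1000 bp and at 4 with 500 bp, in place of 6. Of all genes, 3.26% and 2.09% had one at these windows. PIP1;4 was lost at 1000 bp, and PIP1C as well at 500 bp. These settings keep fewer peaks or a smaller area by construction. Ranked by the mean of percentiles within lists, the region at PIP2E moved to percentile 46.2 of the shared regions from 40.4. It was flagged because its spread over the lists was small, with a standard deviation of 3.7. The regions at PIP1A (35.2 to 28.0) and on the high side of PIP1B (33.1 to 39.1) also moved. Their standard deviations over the lists were larger, 34.8 and 23.6. The cause of these moves was not tested. Leaving out the list of a replicate in turn gave 6 to 8 genes with a summit of every remaining list, and 8 to 9 shared regions. Of all genes, 8.45% to 9.24% then had a summit of every remaining list, in place of 6.73%. No paired analysis was possible because the lists give peaks and no value for each JAG-GFP and wild-type sample. Weak sites below the lowest score of a list cannot be seen.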
